A study of Homo sapiens with 18 samples.

Results

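The mRNAs of 8 receptor tyrosine kinases were followed through depletion of ESCRT-I, the complex that helps to pass such receptors on for degradation. The receptors were EGFR, ERBB2, ERBB3, MET, IGF1R, INSR, AXL and EPHA2. They were taken by name from the 20802 genes counted, and all 8 had enough counts to be tested among 10246 genes. The cells were RKO, an established human colorectal carcinoma line, grown in medium with serum. Cells were transfected at 30 nM with one of 6 siRNAs and collected 72 h later. siCtrl#1 and siCtrl#2 are nontargeting controls, siTsg101#1 and siTsg101#2 deplete Tsg101, and siVps28#1 and siVps28#2 deplete Vps28. Each siRNA had 3 libraries, 1 in each of batches 1, 2 and 3 of the labels, which gave 18 libraries in 6 groups. The study describes its RNA-seq libraries as coming from independent experiments.

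A receptor tyrosine kinase is a membrane protein that phosphorylates itself and its partners when a ligand binds outside the cell. Ubiquitin ligases of the Cbl family mark the active receptor, clathrin-dependent or other endocytosis brings it to endosomes, and the ESCRT complexes move it into vesicles inside the endosome that end in the lysosome. TSG101 and VPS28 are subunits of ESCRT-I, which binds ubiquitin on such cargo. EGFR is the receptor in which this route has been studied most. The present values are mRNA levels and say nothing of how much receptor protein the cells held.

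The libraries were made by amplifying 1 short stretch of each transcript, and 2561790 to 7466916 reads per library fell on genes. A level is given as the normalised count scaled to a common library size (CPM), that is, after TMM scaling of the library sizes. The primers differ from gene to gene, so that a level compares libraries for 1 gene and does not compare genes. A change was called when it was at least 1.5-fold with an adjusted p under 0.05 (edgeR's quasi-likelihood test, Benjamini-Hochberg adjustment over all genes tested). TSG101 mRNA changed by -4.85 and -5.11 on the log2 scale with siTsg101#1 and siTsg101#2, and VPS28 mRNA by -4.15 and -4.07 with siVps28#1 and siVps28#2. Of 8 epithelial marker genes, EPCAM, KRT8, KRT18 and CDX2 were read with more than 100 counts in all, and the other 4 had at most 10 counts in any library. CDH1, which encodes the epithelial adhesion protein E-cadherin, had 0 counts in all 18 libraries. Of 9 markers of immune and endothelial cells, 8 had at most 10 counts in any library, and CD68, a lysosomal membrane glycoprotein that is also used as a macrophage marker, was the exception.

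MET was the receptor with the largest change. MET encodes the receptor for hepatocyte growth factor (RefSeq NM_000245) and lies on the plus strand of chromosome 7 of GRCh37, from 116312250 to 116438431. EPHA2, a receptor for ephrin-A ligands on neighbouring cells (RefSeq NM_004431), changed in the opposite direction and lies on the minus strand of chromosome 1, from 16450832 to 16482564. No exon of either gene overlaps an exon of another gene in the annotation. Of the 50-base stretches, 0.299% of those in MET transcripts and 0.242% of those in EPHA2 transcripts occur in transcripts of another gene. The 250 bases before the start of these 2 genes are shown because these were the mRNAs called in the mean of the 4 on-target siRNAs, in opposite directions. They come from the RefSeq promoter sequences and were placed in GRCh37 by exact match, at chr7:116312000-116312249 on the plus strand for MET and at chr1:16482565-16482814 on the minus strand for EPHA2. Capitals mark GC boxes (GGGCGG, or its complement on the other strand), the binding letters of Sp-family factors.
MET: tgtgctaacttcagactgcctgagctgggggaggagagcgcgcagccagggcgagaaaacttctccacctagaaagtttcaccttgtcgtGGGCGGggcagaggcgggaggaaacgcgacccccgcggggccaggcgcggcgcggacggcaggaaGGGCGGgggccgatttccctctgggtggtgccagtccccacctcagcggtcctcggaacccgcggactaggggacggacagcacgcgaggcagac
EPHA2: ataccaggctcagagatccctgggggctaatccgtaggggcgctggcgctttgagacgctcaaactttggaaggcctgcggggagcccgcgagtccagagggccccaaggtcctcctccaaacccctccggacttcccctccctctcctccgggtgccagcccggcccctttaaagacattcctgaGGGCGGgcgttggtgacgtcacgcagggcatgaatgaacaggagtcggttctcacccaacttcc

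Motifs were searched on both strands in 300 bases, from 250 before to 50 after each start, of the 35116 promoters in the RefSeq table (GRCh38.p14). The GC box was in 45% of all promoters, the AP-1 motif TGANTCA in 7.71% and the E box CACGTG in 7.26%. MET had 3 GC boxes, of which those beginning 160 and 95 bases before the start are in the sequence above and the third began 12 bases after the start. MET also had the one E box found among the receptors, which began 3 bases after the start. EPHA2 had 1 GC box, 64 bases before the start,. Of the other receptors, EGFR had 3 GC boxes at one start and 2 AP-1 motifs at another, INSR had 4 GC boxes, IGF1R had 2, AXL had 2 at one of its 2 starts, and ERBB2 had 1 AP-1 motif. ERBB3 had no entry in the table, so that 7 of the 8 receptors were matched. A match describes letters and does not show that a factor binds there.

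Relative to siCtrl#1, MET was called with every on-target siRNA, EPHA2 with 3 of the 4 and EGFR with 1. With siTsg101#1, 2 receptors rose (MET and EGFR) and 1 fell (EPHA2), where 21.8% of all genes tested were called. With siTsg101#2, MET rose and EPHA2 fell, against 17.0% of all genes. With siVps28#1, MET again rose and EPHA2 fell, against 8.63% of all genes. With siVps28#2, MET alone rose, against 13.3% of all genes. In the mean of the 4 on-target siRNAs, 1 receptor rose, 1 fell and 6 were not called, against 15.0% of all genes called. All of these comparisons share the same 3 siCtrl#1 libraries. Between siCtrl#2 and siCtrl#1, 1 receptor was called, MET, where 2.06% of all genes were called.

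**Figure D1:**
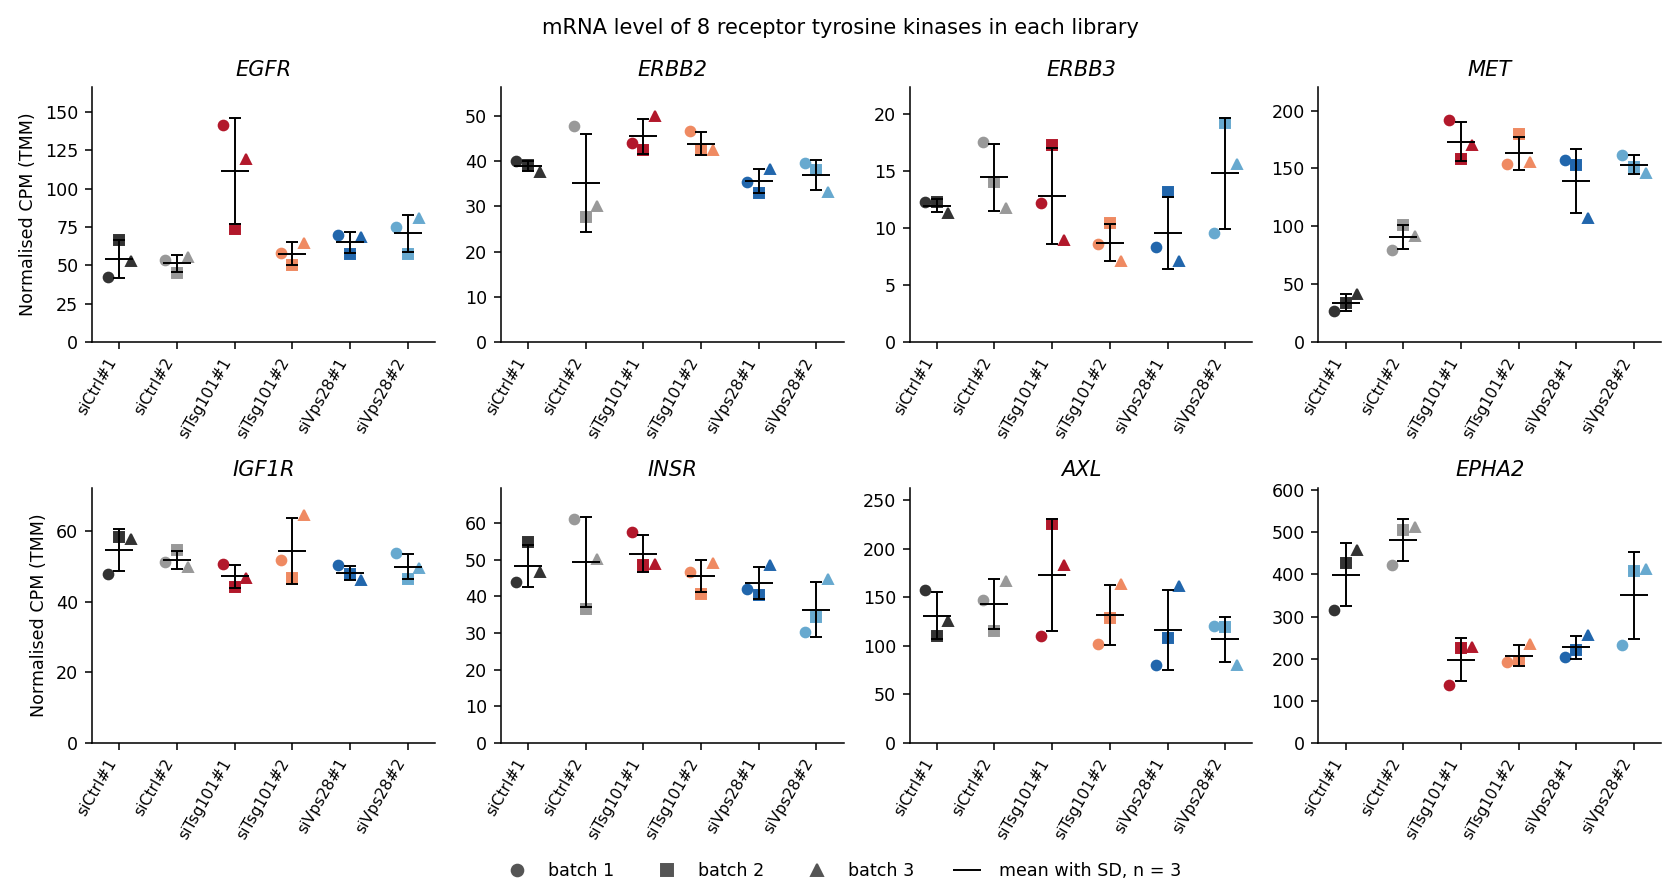
Normalised CPM of the 8 receptor mRNAs (vertical axes, each starting at 0) in the 18 libraries, by siRNA (horizontal axes). Points are single libraries with a symbol for each batch, and the bar with whiskers is the mean with its SD (n = 3). The 12 on-target libraries of MET lie at 107 to 192, above all control libraries, and those of EPHA2 reach down to 138.

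**Figure D2:**
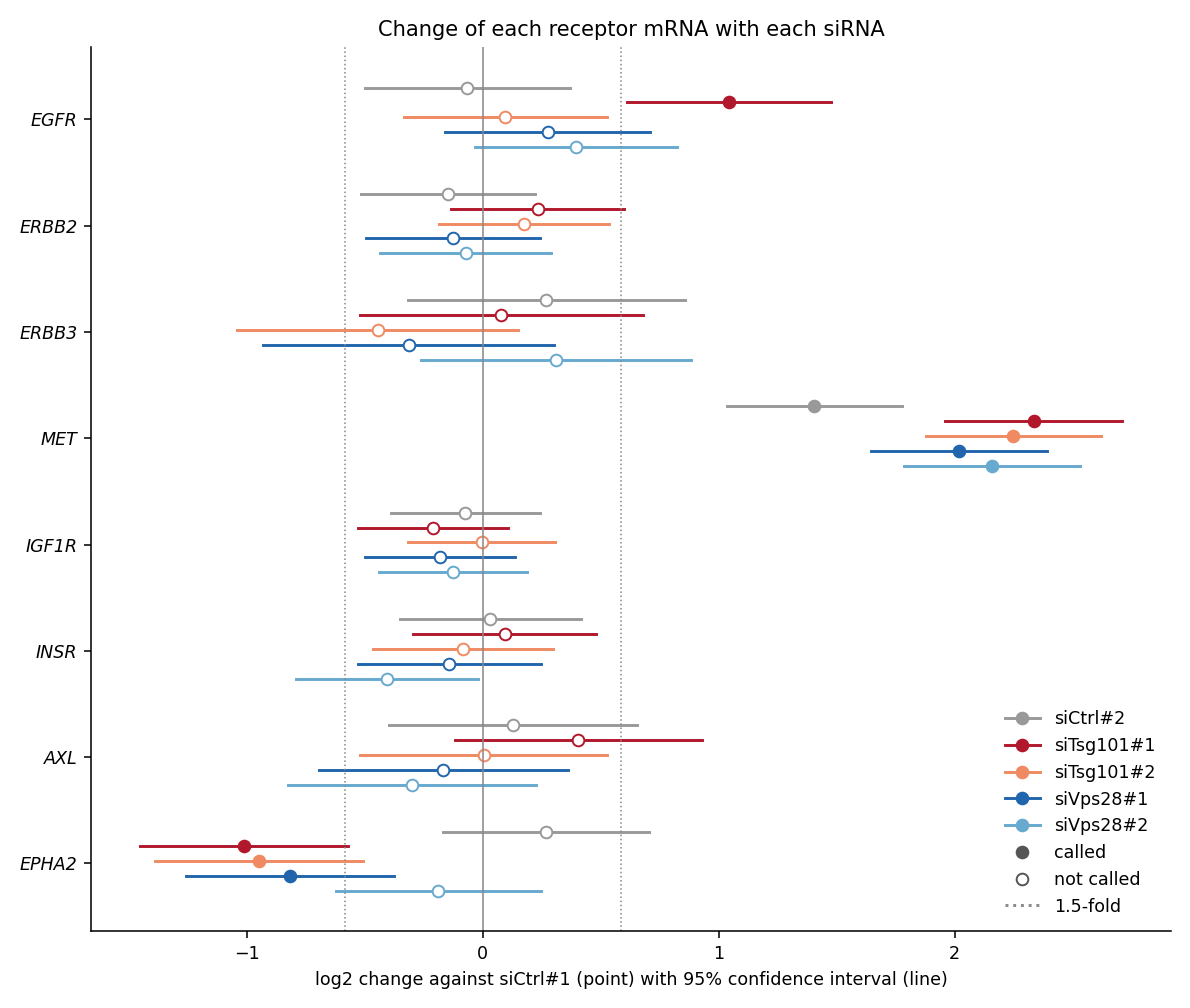
Log2 change of each receptor mRNA against siCtrl#1 (horizontal axis) for the 4 on-target siRNAs and siCtrl#2, with lines for the 95% confidence interval of the fit. Filled points were called, open points were not, and dotted lines mark a 1.5-fold change. MET was called with all 5 siRNAs, EPHA2 with 3 and EGFR with 1.

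MET mRNA was lowest with siCtrl#1, with 26.8, 33.8 and 41.8 CPM in replicates 1, 2 and 3. With siCtrl#2 it was 79.8, 101 and 91.8 CPM. With siTsg101#1 it was 192, 158 and 170 CPM, and with siTsg101#2 it was 154, 179 and 156 CPM. The libraries of siCtrl#1, of siCtrl#2 and of the on-target siRNAs thus formed 3 ranges that did not overlap. With siVps28#1 MET was at 158, 153 and 107 CPM, and with siVps28#2 at 162, 152 and 146 CPM. The lowest on-target library was siVps28#1 replicate 3, at 107 CPM, and the highest siCtrl#2 library was at 101 CPM. In raw reads, MET had 110 to 244 counts in the siCtrl#1 libraries and up to 1220 in the others.

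The order of the group means was siCtrl#1 (34.1 ± 7.49 CPM, SD, n = 3), siCtrl#2 (90.9 ± 10.7), siVps28#1 (139 ± 27.7), siVps28#2 (153 ± 8.03), siTsg101#2 (163 ± 14.2) and siTsg101#1 (173 ± 17.2). Neighbours overlapped in this order only among the 4 on-target groups. The log2 change of MET against siCtrl#1 was 2.34 with siTsg101#1 (SE 0.18, adjusted p = 5.39e-09 from edgeR), 2.25 with siTsg101#2 (adjusted p = 9.05e-09), 2.02 with siVps28#1 (adjusted p = 1.20e-07) and 2.16 with siVps28#2 (adjusted p = 2.59e-08). Their mean was 2.19 (95% confidence interval 1.86 to 2.52, adjusted p = 2.86e-09 from edgeR), a 4.57-fold higher level. MET was 1.41 higher with siCtrl#2 than with siCtrl#1 (SE 0.18, adjusted p = 5.97e-05 from edgeR), a 2.65-fold difference between 2 nontargeting siRNAs. The size of the MET change thus depended on which control was the reference. With no untransfected group, the difference between the controls could not be assigned to either of them.

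With siCtrl#2 as the reference, MET still passed both thresholds with every on-target siRNA. The log2 changes with siTsg101#1, siTsg101#2, siVps28#1 and siVps28#2 were 0.93, 0.84, 0.61 and 0.75 (adjusted p of 4.47e-04, 0.00122, 0.0376 and 0.00493 from edgeR). Their mean was 0.78 (95% confidence interval 0.49 to 1.08, adjusted p = 4.20e-04 from edgeR), a 1.72-fold higher level. Within batches, the on-target library was above the siCtrl#1 library of its own batch in 12 of 12 pairs, by 1.36 to 2.84 on the log2 scale. It was above the siCtrl#2 library in 12 of 12 pairs too, by 0.23 to 1.27, with the lowest value from siVps28#1 in batch 3. For each reference, the 12 pairs share 3 control libraries and are not independent of each other. Tsg101 and Vps28 depletion differed in MET by 0.20 (95% confidence interval -0.04 to 0.45, adjusted p = 0.298 from edgeR), siTsg101#1 and siTsg101#2 by 0.09, and siVps28#1 and siVps28#2 by -0.14.

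EPHA2 mRNA was lower with 3 of the 4 on-target siRNAs. The 3 siCtrl#1 libraries held 316, 426 and 457 CPM, and the siCtrl#2 libraries 423, 507 and 513 CPM. With siTsg101#1 EPHA2 was at 138, 226 and 228 CPM, and with siTsg101#2 at 192, 194 and 235 CPM. All 6 Tsg101-depleted libraries lay below all 6 control libraries. With siVps28#1 it was at 204, 220 and 256 CPM, again below every control. With siVps28#2 it was at 231, 408 and 413 CPM, so that replicate 1 lay below the controls and replicates 2 and 3 within the range of siCtrl#1. In all, 10 of the 12 on-target libraries were below all control libraries.

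The log2 change of EPHA2 against siCtrl#1 was -1.01 with siTsg101#1 (SE 0.21, adjusted p = 0.00121 from edgeR) and -0.95 with siTsg101#2 (SE 0.21, adjusted p = 0.00274). It was -0.82 with siVps28#1 (SE 0.21, adjusted p = 0.0161). With the replicate block it was -0.80 (adjusted p = 0.00106). Without the block, this last call was lost with some libraries left out, while the change stayed between -0.96 and -0.71, as without siVps28#1 replicate 1 the change was -0.75 (adjusted p = 0.073), without siVps28#1 replicate 2 it was -0.80 (adjusted p = 0.0568), without siCtrl#1 replicate 2 it was -0.77 (adjusted p = 0.0576) and without siCtrl#1 replicate 3 it was -0.71 (adjusted p = 0.0696). With siVps28#2 the change was -0.19 (95% confidence interval -0.62 to 0.25, adjusted p = 0.613), and it was 0.04 without replicate 1 of that group. The mean of the 4 siRNAs was -0.74 (95% confidence interval -1.07 to -0.41, adjusted p = 0.00146 from edgeR). The nontargeting siCtrl#2 differed from siCtrl#1 by 0.27 (adjusted p = 0.608), in the other direction, and against siCtrl#2 the mean change of EPHA2 was -1.01 (adjusted p = 8.54e-05).

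Within batches, EPHA2 was lower than in the matching siCtrl#1 library in 12 of 12 pairs, by -1.19 to -0.06 on the log2 scale, and lower than in the matching siCtrl#2 library in 12 of 12, by -1.61 to -0.31. The values nearest to 0 were those of siVps28#2 in batches 2 and 3. Here too, the 12 pairs share 3 control libraries for each reference. EPHA2 differed between Tsg101 and Vps28 depletion by -0.48 (95% confidence interval -0.79 to -0.17, adjusted p = 0.0391 from edgeR), a lower level after Tsg101 depletion by less than 1.5-fold. The 2 Vps28 siRNAs differed by -0.63 (95% confidence interval -1.07 to -0.19, adjusted p = 0.321). The order of the group means was siTsg101#1 (197 ± 51.2 CPM, SD, n = 3), siTsg101#2 (207 ± 24.5), siVps28#1 (227 ± 26.9), siVps28#2 (351 ± 103), siCtrl#1 (399.7 ± 74.3) and siCtrl#2 (481 ± 49.99), and each neighbour overlapped the next. The summed level of the epithelial markers was 127 to 167 CPM in the 6 control libraries and 93.8 to 145 CPM in the 12 on-target libraries. Since the primers differ from gene to gene, the weight of each marker in the sum depends on its primers. In the mean against siCtrl#1, where 15.0% of all genes were called, the tested markers did not move together. EPCAM was called higher (0.65, adjusted p = 0.0393 from edgeR) and KRT8 lower (-0.69, adjusted p = 0.0129). However, EPCAM was also the 1 marker called higher with siCtrl#2 than with siCtrl#1, where 2.06% of all genes were called. Its group means were 6.72 CPM with siCtrl#1, 13.55 CPM with siCtrl#2 and 8.31 to 13.1 CPM in the on-target groups. In the mean against siCtrl#2, 0 of the 4 tested markers were higher, and their median change was -0.37. There 0 of them were called, where 10.5% of all genes were called. KRT18 was the largest part of the sum. The part of these markers in the EPHA2 result was not tested. In bulk RNA, fewer cells with a transcript and less of it per cell cannot be told apart.

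EGFR is a receptor of the ErbB family that binds EGF, TGFα and related ligands. EGFR (RefSeq NM_005228) lies on the plus strand of chromosome 7, from 55086710 to 55279321. EGFR-AS1 covers 186 of its 15941 exonic bases on the opposite strand. Neither the strand setting of the authors' counting nor the position of the amplicon was given in the sources used here. Whether the reads counted for EGFR include any of EGFR-AS1 is thus not known. EGFR was at 42.5, 66.8 and 52.9 CPM with siCtrl#1 and at 53.3, 45.2 and 55.6 CPM with siCtrl#2. With siTsg101#1 it was at 141, 73.8 and 119 CPM, and these 3 libraries lay above every control library. With siTsg101#2, against the same mRNA, it was at 57.9, 49.9 and 64.7 CPM, inside the control range. With siVps28#1 it was at 69.6, 57.3 and 68.5 CPM, and with siVps28#2 at 74.8, 57.1 and 80.6 CPM. In each of these groups 2 libraries lay above all controls and replicate 2 did not.

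EGFR rose by 1.04 with siTsg101#1 (SE 0.21, adjusted p = 7.45e-04 from edgeR), a 2.06-fold higher level. It changed by 0.10 with siTsg101#2 (95% confidence interval -0.34 to 0.53), by 0.27 with siVps28#1 (-0.16 to 0.71) and by 0.40 with siVps28#2 (-0.03 to 0.82), and none of these was called. The mean of the 4 siRNAs was 0.45 (95% confidence interval 0.10 to 0.80, adjusted p = 0.0562 from edgeR), and it was 0.62 and called without siCtrl#1 replicate 2 (adjusted p = 0.0342). Against siCtrl#2 the mean was 0.52 (adjusted p = 0.0397), which is under 1.5-fold. The 2 siRNAs against Tsg101 differed in EGFR by 0.95 (SE 0.21, adjusted p = 0.00498 from edgeR). EGFR was the only receptor called between these 2 siRNAs, where 6.94% of all genes were called. TSG101 mRNA was at 3.27 to 4.75 CPM with siTsg101#1 (8 to 34 counts per library) and at 2.49 to 4.97 CPM with siTsg101#2 (16 to 30 counts). The cause of the EGFR difference was not tested. Within batches, EGFR was above the siCtrl#2 library in 12 of 12 pairs, by 0.12 to 1.41, and above the siCtrl#1 library in 9 of 12, by -0.42 to 1.73. The 3 lower values were all from batch 2, where siCtrl#1 had its highest library. These pairs also share 3 control libraries for each reference.

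**Figure D3:**
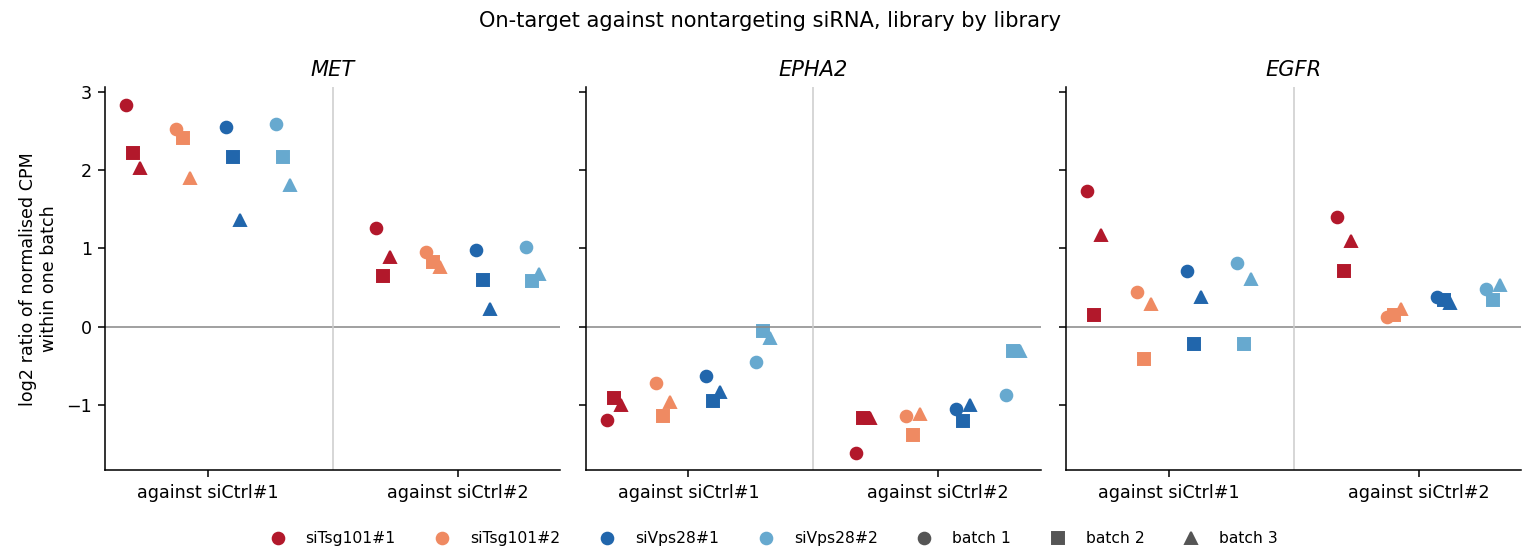
Log2 ratio of normalised CPM between each on-target library and a nontargeting library of the same batch (vertical axis), against siCtrl#1 (left of each panel) and siCtrl#2 (right), for MET, EPHA2 and EGFR. Colours are siRNAs and symbols are batches. Every MET ratio is above 0, every EPHA2 ratio is below 0, and the EGFR ratios of siTsg101#1 reach 1.73.

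The other ErbB receptors were not called with any siRNA. ERBB2, the family member that has no known ligand and acts as a partner of the others, lies on chromosome 17 from 37844167 to 37886679, with 715 exonic bases covered by MIEN1 and PGAP3 on the opposite strand. It was at 37.7 to 40.0 CPM in the siCtrl#1 libraries, 27.7 to 47.7 CPM with siCtrl#2, 42.4 to 49.96 CPM in the 6 Tsg101-depleted libraries and 33.0 to 39.6 CPM in the 6 Vps28-depleted libraries. The libraries of the 2 depletions did not overlap, and their difference was 0.30 (95% confidence interval 0.05 to 0.56, adjusted p = 0.118 from edgeR). The mean change of ERBB2 against siCtrl#1 was 0.05 (95% confidence interval -0.24 to 0.34, adjusted p = 0.829), the largest with 1 siRNA was 0.23 (siTsg101#1), and siCtrl#2 differed from siCtrl#1 by -0.15.

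ERBB3, a neuregulin receptor with little kinase activity of its own, lies on chromosome 12 from 56470583 to 56497289 and was read with the fewest counts of the 8, from 29 to 116 per library. Its levels ran from 7.12 to 19.2 CPM, and all neighbours in the order of group means overlapped. The mean change was -0.09 (95% confidence interval -0.56 to 0.38, adjusted p = 0.808 from edgeR), with -0.45 for siTsg101#2 as the largest, and siCtrl#2 differed from siCtrl#1 by 0.27. Against siCtrl#2 the change with siTsg101#2 was -0.72 (adjusted p = 0.085), and it was called with the replicate block (-0.74, adjusted p = 0.0319 from edgeR).

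IGF1R and INSR, the receptors for insulin-like growth factors and for insulin, were not called with any siRNA. IGF1R lies on chromosome 15 from 99191768 to 99507759 and INSR on the minus strand of chromosome 19 from 7112266 to 7294425, and neither shares exon bases or 50-base stretches with another gene. IGF1R was at 44.1 to 64.6 CPM over the 18 libraries, the narrowest span of the 8 receptors in proportion to its level. Its mean change was -0.13 (95% confidence interval -0.38 to 0.12, adjusted p = 0.465 from edgeR), and its largest with 1 siRNA was -0.21 (siTsg101#1). INSR was at 30.2 to 61.2 CPM, with a mean change of -0.14 (95% confidence interval -0.44 to 0.17, adjusted p = 0.546) and its lowest group with siVps28#2, at 30.2, 34.2 and 44.8 CPM (change -0.41, adjusted p = 0.154). The groups next to each other in the order of means overlapped for both genes. siCtrl#2 differed from siCtrl#1 by -0.07 in IGF1R and by 0.03 in INSR.

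AXL, the receptor for the bridging ligand GAS6, lies on chromosome 19 from 41725128 to 41767671, with 67 exonic bases covered on the opposite strand. Its libraries varied most within groups, with a coefficient of variation of up to 35.5%, and ran from 79.9 to 225 CPM. The highest library was siTsg101#1 replicate 2 and the lowest were siVps28#1 replicate 1 and siVps28#2 replicate 3, each at 79.9 or 80.0 CPM. Its mean change was -0.02 (95% confidence interval -0.43 to 0.40, adjusted p = 0.966 from edgeR), the largest with 1 siRNA was 0.41 (siTsg101#1), and siCtrl#2 differed from siCtrl#1 by 0.13. Tsg101 and Vps28 depletion differed in AXL by 0.44 (95% confidence interval 0.07 to 0.81, adjusted p = 0.118), and the difference was called without siVps28#1 replicate 3 (0.59, adjusted p = 0.0367). In at least 1 other setting, with no library of the depletions left out, the adjusted p was also under 0.05. The difference was not called there, as it was under 1.5-fold.

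Between Tsg101 and Vps28 depletion, 0 of the 8 receptors were called by edgeR and 0 by DESeq2, where 6.20% of all genes were called. By unadjusted p under 0.05, 4 differed, namely ERBB2, INSR (0.28, adjusted p = 0.182 from edgeR), AXL and EPHA2, and EPHA2 alone had an adjusted p under 0.05. Between siVps28#1 and siVps28#2, 0 receptors were called by either tool, 0.488% of all genes were called, and 2 receptors (ERBB3 and EPHA2) had an unadjusted p under 0.05. With siCtrl#2 as the reference, the receptors called were the same in number as with siCtrl#1. They were 3 with siTsg101#1 (16.0% of all genes), 2 with siTsg101#2 (14.4%), 2 with siVps28#1 (4.39%), 1 with siVps28#2 (9.22%) and 2 in the mean of the 4 (10.5%).

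The 50 other receptor tyrosine kinases of the genome included 13 with enough counts to be tested, and the others had at most 100 counts over the 18 libraries. In the mean of the 4 siRNAs, where 15.0% of all genes were called, 1 of the 13 rose, 0 fell, and the median change was 0.04, against -0.01 over all genes tested. FGFR4, a fibroblast growth factor receptor, was the one that rose, by 0.66 (SE 0.21, adjusted p = 0.0252 from edgeR), and the call was lost without siCtrl#1 replicate 1 or siCtrl#1 replicate 3 and with siCtrl#2 as the reference (0.57, adjusted p = 0.0677). FGFR4 was at 8.86 to 16.3 CPM in the 6 control libraries and 12.1 to 23.6 CPM in the on-target ones. FGFR3 differed between the depletions by 1.20 (adjusted p = 0.0156 from edgeR) on 2 to 26 counts per library, and was named after its values were seen.

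Of 22 ligands of the 8 receptors, 10 were tested, and 1 of them, HBEGF, rose in the mean of the 4 siRNAs, where 15.0% of all genes were called. HBEGF encodes heparin-binding EGF-like growth factor, a membrane-anchored ligand of EGFR. It was at 16.8, 20 and 19.7 CPM with siCtrl#1 and at 12.7, 21.5 and 17.1 CPM with siCtrl#2. It was at 59.6, 29.2 and 41.9 CPM with siTsg101#1, at 36.7, 38.0 and 25.1 CPM with siVps28#1 and at 56.8, 36.4 and 58.2 CPM with siVps28#2. These 9 libraries lay above all 6 controls. With siTsg101#2 it was at 16.4, 15.6 and 18.1 CPM, within the control range. The log2 changes were 1.19, -0.18, 0.82 and 1.42 with siTsg101#1, siTsg101#2, siVps28#1 and siVps28#2, and their mean was 0.81 (SE 0.21, adjusted p = 0.0054 from edgeR). The 2 Tsg101 siRNAs differed in HBEGF by 1.37 (adjusted p = 9.53e-04), with siTsg101#1 the higher, as in EGFR. siCtrl#2 differed from siCtrl#1 by -0.14 (adjusted p = 0.868).

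HGF, the ligand of MET, was called with siTsg101#2 (0.63, adjusted p = 0.012 from edgeR) and siVps28#1 (0.64, adjusted p = 0.0219) and not with siTsg101#1 (-0.05) or siVps28#2 (0.30). It was at 107 to 139 CPM in the 6 control libraries, 112 to 120 CPM with siTsg101#1, 161 to 222 CPM with siTsg101#2, 146 to 228 CPM with siVps28#1 and 131 to 178 CPM with siVps28#2. The 2 Tsg101 siRNAs differed in HGF by -0.68 (adjusted p = 0.0167), with siTsg101#2 the higher, opposite to EGFR and HBEGF. The mean change of HGF was 0.38 (adjusted p = 0.0539), and the median over the 10 ligands was 0.33.

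Of 36 genes for receptor ubiquitination and endocytic sorting, 33 were tested, and 1 rose and 0 fell in the mean of the 4 siRNAs, with a median of 0.15, where 15.0% of all genes were called. The one that rose was CBLB, a ubiquitin ligase of the Cbl family that marks active receptors for sorting. CBLB was at 8.86, 7.69 and 14.7 CPM with siCtrl#1, at 17.8, 13.6 and 21.2 CPM with siCtrl#2 and at 20.8 to 36.8 CPM in the 12 on-target libraries. The on-target libraries lay above siCtrl#1 and all but 1 of them above siCtrl#2. The log2 changes were 1.31, 1.40, 1.41 and 1.69 with siTsg101#1, siTsg101#2, siVps28#1 and siVps28#2, with a mean of 1.45 (SE 0.19, adjusted p = 7.55e-06 from edgeR). As with MET, part of this was shared by the second control, since siCtrl#2 was 0.72 higher than siCtrl#1 (adjusted p = 0.115, and 0.0473 and called with the replicate block). Against siCtrl#2, CBLB rose by 0.74 in the mean (adjusted p = 0.00485). An antisense gene covers 214 exonic bases of CBLB.

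Of the sorting genes, 3 were higher and 1 lower after Tsg101 than after Vps28 depletion, where 6.20% of all genes were called, and these were named after their values were seen. STUB1, a ubiquitin ligase that works with chaperones, was at 58.6 to 69.0 CPM in the Tsg101-depleted libraries, 23.4 to 35.5 CPM in the Vps28-depleted ones and 25.01 to 47.2 CPM in the controls, a difference of 1.05 between the depletions (adjusted p = 7.69e-06 from edgeR). The antisense gene JMJD8 overlaps 985 of the 2318 exonic bases of STUB1. USP8 was higher (0.65, adjusted p = 0.00645 from edgeR) and STAMBP lower (-0.69, adjusted p = 3.76e-04) after Tsg101 than after Vps28 depletion. Both enzymes remove ubiquitin from endosomal cargo. USP8 shares 1366 exonic bases with the antisense gene USP50. RNF126, a ligase reported to act on EGFR traffic, was 0.68 higher after Tsg101 depletion (adjusted p = 0.0155), a call that was lost without siTsg101#2 replicate 2.

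Of 35 adaptors, inhibitors and phosphatases that act next to the receptors, 29 were tested, and 2 rose, 1 fell and 26 were not called in the mean of the 4 siRNAs, with a median of 0.19, where 15.0% of all genes were called. With the replicate block 3 rose and 1 fell, since ERRFI1 was then called (1.05, adjusted p = 0.0105, against 0.98 and 0.0865 without the block, both from edgeR). SOS2, an exchange factor that activates Ras downstream of receptors, had a mean change of 2.21 (SE 0.34, adjusted p = 5.87e-05 from edgeR). It was at 0.923 to 1.71 CPM with siCtrl#1, at 2.03 to 3.27 CPM with siCtrl#2 and at 11.03 to 20.7 CPM in the Tsg101-depleted libraries (a change of 3.29 with siTsg101#1 and 3.43 with siTsg101#2, adjusted p of 9.15e-07 and 5.63e-07 from edgeR). In the Vps28-depleted libraries it was at 1.91 to 5.35 CPM, below every Tsg101-depleted library, and was called with siVps28#2 (1.39, adjusted p = 0.0237) and not with siVps28#1 (0.75). The 2 depletions differed by 2.29 (adjusted p = 2.02e-07). SOS2 had 3 to 10 counts in the siCtrl#1 libraries, so that its fold is imprecise. CRK, an adaptor, rose by 0.68 (adjusted p = 7.49e-04 from edgeR). However, CRK was 0.89 higher with siCtrl#2 than with siCtrl#1 (adjusted p = 0.00356 from edgeR), and against siCtrl#2 its mean change was -0.21. LRIG3, a transmembrane protein of a family that limits receptor signalling, fell by 0.84 (adjusted p = 0.0295), but the call was lost without siCtrl#1 replicate 1 or siCtrl#1 replicate 3, and its mean change was 0.07 against siCtrl#2. ERRFI1, a cytosolic inhibitor of ErbB kinases that was named after its values were seen, was 2.09 higher after Tsg101 than after Vps28 depletion (adjusted p = 6.35e-05), on 21 to 72 counts per library against 4 to 16.

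**Figure D4:**
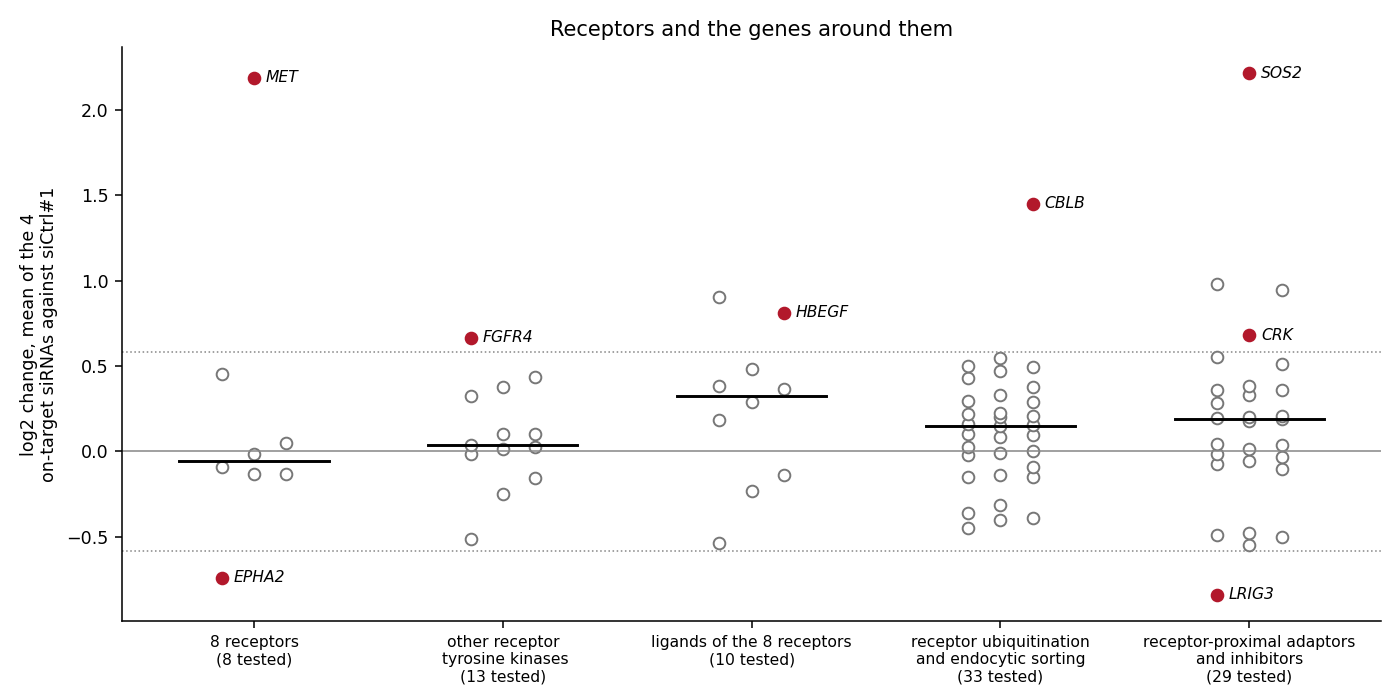
Log2 change against siCtrl#1, averaged over the 4 on-target siRNAs (vertical axis), for the 8 receptors and for the tested genes of 4 lists (horizontal axis). Each point is a gene, filled and named where it was called, the black line is the median of the list and dotted lines mark 1.5-fold. The list medians lie between -0.05 and 0.33, and MET, SOS2 and CBLB lie above 1.

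For each receptor, the genes whose normalised level followed it most closely over the 18 libraries were taken by Pearson's r. The libraries share siRNA groups and batches, so that the values are descriptions. MET was followed most closely by NRBF2 (r = 0.948), DYNLT3 (0.948) and TTL (0.948), EGFR by YWHAZ (0.912), TBC1D10A (0.904) and BET1 (0.898), and EPHA2 by EID2 (0.846), PARP1 (0.845) and RWDD3 (0.845). For ERBB2 the nearest genes were TMEM51 (0.884), COA4 (0.857) and GTPBP4 (0.843), and for ERBB3 they were LRBA (0.800), EIF2AK1 (0.799) and AMBRA1 (0.774). For INSR they included MRFAP1 (0.850) and RNF40 (0.804), and for AXL they were ARRB1 (0.776), DYRK2 (0.770) and AMOTL2 (0.750). IGF1R, which varied least, had the weakest, ACAD9 (0.670), PIK3C2B (0.664) and PPIL1 (0.650).

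CD68 was the one immune or endothelial marker tested, with a mean change of 0.88 against siCtrl#1 (adjusted p = 7.64e-05 from edgeR) and of 0.29 against siCtrl#2 (adjusted p = 0.157). The summed level of the immune and endothelial markers was nearly all CD68. It was 515 to 723 CPM with siCtrl#1 and 781 to 1055 CPM with siCtrl#2. It was 1086 to 1668 CPM in the Tsg101-depleted libraries, 684 to 841 CPM with siVps28#1 and 1206 to 1621 CPM with siVps28#2. PTPRC, CD3E and CDH5, which define leukocytes, T cells and endothelium, were at 0 counts in every library, and the part of this sum in the receptors' values was not tested. Of 7 fibroblast and smooth muscle markers, only ACTA2 was tested, with a mean change of 0.53 that was not called, and 5 had at most 10 counts in any library.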

How the data were processed

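The authors transfected RKO cells with 1 of 6 siRNAs, prepared 18 libraries with an amplicon panel (Ion AmpliSeq) and deposited 1 table of read counts per library, not normalised. The submitters' processing notes name HTSeq 0.6.0, DESeq2 1.18.1 and the build hg19 (GRCh37). The strand setting and the amplicon positions were not given in the sources used here. Reads on genes numbered 2561790 to 7466916 per library (median 5022216.5), and 48.23 to 49.07% of reads were assigned to no feature and left out. These totals cover counting only, and a gene with few counts is measured less precisely. Groups and replicate numbers were taken from the labels. Genes with more than 100 counts over the libraries were kept (10632), 386 noncoding genes were left out, and 10246 were tested with edgeR 4.0.16 in R 4.3.3 (quasi-likelihood test, TMM, 18 libraries in 1 fit). A gene was called at 1.5-fold or more with a Benjamini-Hochberg adjusted p under 0.05. Symbols came from a RefSeq table, which matched 20228 of 20802 identifiers. The code was tested on simulated data. The labels give the replicate number as a batch that holds 1 library of each siRNA, so that the numbers pair the libraries. Over 45 pairs of libraries with the same number, deviations from the group means had a mean r of 0.15 (-0.15 to 0.39), and 30 were over 0.1. These pairs reuse the same 18 libraries and are not independent of each other. Alternatives were the replicate block, DESeq2 1.42.0, other size factors, filters, thresholds and references, and each library left out. Besides the receptors, the text names TSG101 and VPS28, from each gene list up to 4 genes called in each direction with the largest mean change, ligands called with at least 2 siRNAs, and the 3 genes most like each receptor, of which 1 is not reported here. The receptors and the lists were chosen with earlier results of these data known.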

Additional observations from a re-analysis of the deposited data

Results flagged for a closer look

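The 2 siRNAs against Tsg101 differed in EGFR, by 0.95 on the log2 scale (adjusted p = 0.00498 from edgeR), with all 3 siTsg101#1 libraries above all 3 siTsg101#2 libraries. EPHA2 differed between both siTsg101 groups and both siVps28 groups by -0.48 (adjusted p = 0.0391 from edgeR), where the Tsg101-depleted libraries lay at 138 to 235 CPM and the Vps28-depleted ones at 204 to 413 CPM. Both were picked out because a test of the difference itself, between groups under the same contrast, had an adjusted p under 0.05. In EPHA2, the mean was 227 CPM with siVps28#1 and 351 CPM with siVps28#2, against 197 and 207 CPM with the Tsg101 siRNAs. The 2 Vps28 siRNAs differed by -0.63 (adjusted p = 0.321 from edgeR). With 1 library left out, the adjusted p between the depletions rose to at most 0.111 (edgeR). With 3 libraries in each group, single libraries were not tested for standing apart.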

How the results depend on the processing

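The 72 receptor values were recomputed with each of the 18 libraries left out and under up to 10 other alternatives (the 2 other references apply only to on-target siRNAs against a control), 1952 values in all. The sign changed in 52, none of them of a called value, and the largest value that changed sign was 0.19 in size. The number of receptors called was 1 between siVps28#1 and siVps28#2 with no filter on low counts (EPHA2, -0.64, adjusted p = 0.0433 from edgeR) and 1 between Tsg101 and Vps28 depletion with the adjusted p alone (EPHA2). With 1 library left out, it was 1 to 2 with siVps28#1 and 0 to 1 between the depletions, where the 1 came without siVps28#2 replicate 1 or siVps28#1 replicate 3. With the replicate block, which pairs libraries by batch, ERBB3 was called with siTsg101#2 against siCtrl#2 (-0.74, adjusted p = 0.0319 from edgeR), and no other receptor call changed. With 1 library left out, some values crossed 0, and not all of them are listed here. EGFR ran from -0.051 to 0.27 with siTsg101#2 and from -0.21 to 0.11 with siCtrl#2. EPHA2 ran from -0.33 to 0.038 with siVps28#2 and from -0.18 to 0.13 between the Tsg101 siRNAs. INSR ran from -0.15 to 0.20 with siCtrl#2, and AXL from -0.12 to 0.14 in the mean of the 4 siRNAs. IGF1R ran from -0.025 to 0.10 between the depletions, and MET from -0.24 to 0.018 between the Vps28 siRNAs. In the mean of the 4 siRNAs, the 3 adaptors and inhibitors called became 5 with no filter, 1 with at least 10 counts in every library, 6 with the adjusted p alone, 6 with siCtrl#2 and 5 with both controls as the reference. The 1 sorting gene called became 6, 3 and 3 under the last 3 of these, and 2, 2 and 5 without siCtrl#1 replicate 1, 2 or 3. The 1 other receptor kinase became 2 with the adjusted p alone and 0 with siCtrl#2 as the reference or without siCtrl#1 replicate 1 or 3, and the 1 ligand became 2 with both controls. Of all genes tested, 15.0% were called in this mean with siCtrl#1 and 10.5% with siCtrl#2 as the reference. The share was not taken for the other settings, so that the counts of the lists cannot be set against it there. With siCtrl#2 as the reference, CRK was at -0.21 and LRIG3 at 0.069. The cause of these changes was not tested.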
